A study of Rattus norvegicus with 38 samples.

Results

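The genes described here build the mitochondrial respiratory chain and the citrate cycle. They come from a list of 50 symbols that covers subunits of complexes I to IV, the enzymes of the citrate cycle and the pyruvate dehydrogenase complex that feeds it. A listed gene was measured where a probe set was annotated with exactly 1 of these symbols, and where a gene had several such probe sets, the one with the highest mean over all arrays stood for it. This left 46 genes, among 14217 genes measured on the array. They are 20 of 21 listed complex I subunits, 4 of 4 for complex II, 4 of 5 for complex III and 5 of 5 for complex IV, with 11 of 12 for the citrate cycle and 2 of 3 for pyruvate dehydrogenase. Ndufa10 and Uqcrb lie only on probe sets that list several genes, and Fh and Dlat were matched to no probe set.

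Lung came from 38 female N:NIH rats aged 34 weeks, from breeding lines selected for running capacity, the high-capacity line HCR and the low-capacity line LCR. Cigarette smoke was given on 5 days per week over 12 weeks to 12 rats of each line, and 7 of each line were sham controls kept in room air. Each animal has 1 Affymetrix Rat Genome 230 2.0 array. The comparisons are smoke against sham within a line, LCR against HCR within an exposure, and the interaction of both. The labels of LCR sham 0445 give no strain, age or sex of their own, and its group comes from its title. The ranges of animal numbers do not interleave between groups, so anything that went with the number cannot be told apart from the group.

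The respiratory chain passes electrons from NADH (complex I) and succinate (complex II) through complex III to oxygen at complex IV, and pumps protons that ATP synthase uses to make ATP. The citrate cycle supplies those electrons by oxidising acetyl groups, most of which the pyruvate dehydrogenase complex makes from pyruvate. Heart muscle, oxidative skeletal muscle and brown fat are rich in mitochondria, whereas lung is a mixture of epithelium, endothelium, macrophages and airway cells. RNA from a whole tissue piece cannot tell fewer cells of a type from less RNA per cell.

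Probe set intensities are in the arbitrary linear units of the deposited table. Changes are on the log2(intensity + 16) scale and carry a standard error (SE). It is a scale that understates the change of dim genes. A gene was called where its p from limma, adjusted by Benjamini-Hochberg over all 14217 genes, was under 0.05. The number of arrays limits the precision: the median SE over the 46 genes was 0.065 for smoke against sham within a line.

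Lung identity was clear on all arrays, with Sftpc, the surfactant protein of alveolar type 2 cells, at 9830 to 10920. Muscle RNA was not evenly spread. On 6 arrays the mean of 14 heart muscle markers stood 1.36 to 3.38 log2 above its mean over all arrays: HCR sham 0433, LCR sham 0442 and HCR smoke 0410, 0414, 0415 and 0417. Over whole groups, that mean ran from -0.73 to 1.68 in HCR sham, from -0.75 to 3.15 in HCR smoke, from -0.77 to 3.38 in LCR sham and from -0.82 to 0.52 in LCR smoke. Myh6, the atrial myosin heavy chain, was at 3467 on LCR sham 0442 and at 3096 on HCR smoke 0415, against a median of 8.06 and a highest value of 492.8 on the other 32 arrays, close to the 499 on HCR smoke 0417. Heart marker signal was not confined to these 6 arrays, and HCR sham 0432 had a heart marker mean of 0.97. HCR sham 0433 differed from the other 5, since the mean of 11 skeletal muscle markers stood 4.88 above its all-array mean there and Ucp1, the uncoupling protein of brown fat, was at 1190 (at most 11.2 on the other 32 arrays). HCR sham 0432 had an Actb 3' minus 5' difference of 2.06, against a median of 0.72 in its group, a measure that grows as RNA or cDNA is shorter. Array measures also moved with smoke: that difference was 0.69 to 1.0805 in LCR sham and 0.59 to 0.73 in LCR smoke, and 0.63 to 2.06 in HCR sham and 0.60 to 0.86 in HCR smoke. The mean interquartile range of the log2 values was 2.993 and 2.9995 in HCR and LCR sham, and 2.859 and 2.914 under smoke.

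The 46 genes moved with the muscle markers on 4 of these 6 arrays. LCR sham 0442 had 45 of 46 genes above the mean of the other 6 LCR sham arrays, with a median difference of 0.44 log2, where the median over all genes was -0.013. Its largest was Mdh1, the cytosolic malate dehydrogenase of the malate-aspartate shuttle, at 0.91. All 46 genes were above the other HCR sham arrays on HCR sham 0433 (median 0.33), led by Pdhb, a subunit of the first enzyme of pyruvate dehydrogenase, at 0.63. On HCR smoke 0410 and 0415 it was 45 of 46 each, with medians of 0.29 and 0.15 against the 8 HCR smoke arrays outside this set of 6. HCR smoke 0414 and 0417 did not show it: 13 and 28 genes were above those 8 arrays, with medians of -0.053 and 0.017. Muscle forms of complex IV subunits did not all follow. Cox6a2 was at 824, 1808, 848 and 1164 on 0433, 0442, 0410 and 0415, but its 279 and 184 on 0414 and 0417 were also above the highest of the other 32 arrays (172). Cox7a1 was at 95.7 to 216 on the 6 arrays, against a median of 162 and a highest value of 278 on the other 32. Airway markers were high on some of these arrays too. The mean of 5 ciliated cell markers stood 0.86, 0.85 and 0.60 above its all-array mean on 0410, 0442 and 0415. That of 4 club cell markers stood 1.65, 2.13 and 1.80 above. The 2 means were -0.48 and -0.031 on 0433, -0.42 and 0.27 on 0414, and 0.30 and 1.42 on 0417. Which tissue went with the 46 genes was not tested.

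**Figure D1:**
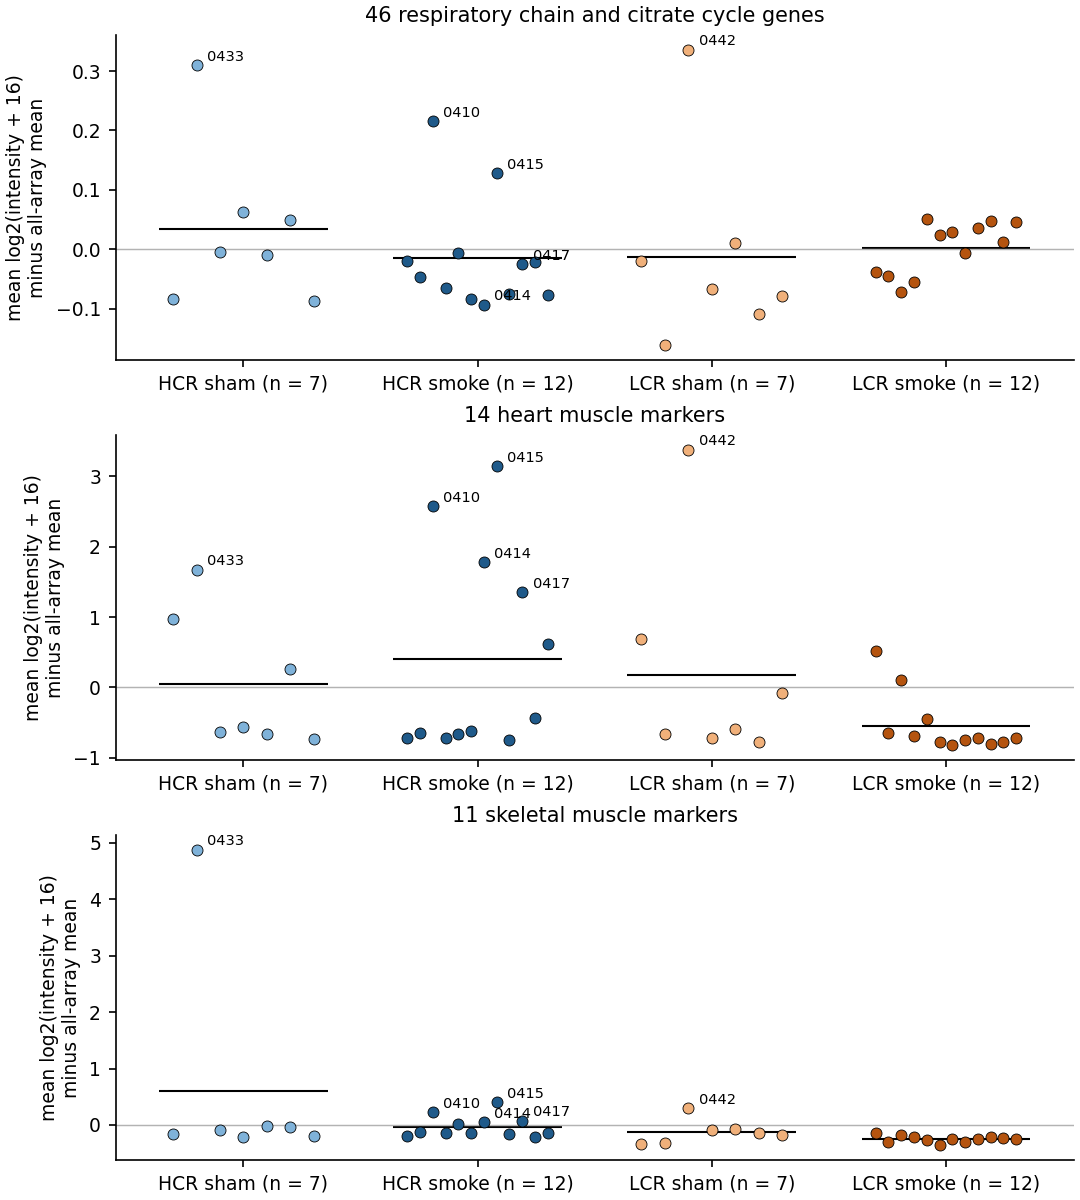
Mean log2(intensity + 16) minus the all-array mean, per array, for the 46 respiratory chain and citrate cycle genes (top), 14 heart muscle markers (middle) and 11 skeletal muscle markers (bottom). Each point is 1 array, each line a group mean, and the 6 arrays with muscle markers carry their animal number. HCR sham 0433, LCR sham 0442 and HCR smoke 0410 and 0415 are highest in their groups in the top panel, while 0414 and 0417 are not.

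These arrays set much of the spread of the 46 genes within a group. The median SD was 0.19 log2 in LCR sham (0.099 over all genes) and 0.086 without 0442. It was 0.17 in HCR sham (0.12 over all genes) and 0.11 without 0433. In HCR smoke it was 0.12 (also 0.12 over all genes) and 0.066 without its 4 arrays. LCR smoke, which holds none of the 6, had a median SD of 0.073 (0.11 over all genes). The number of the 46 genes called is therefore given below with all 38 arrays and, where it differs, with the 6 left out.

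**Figure D2:**
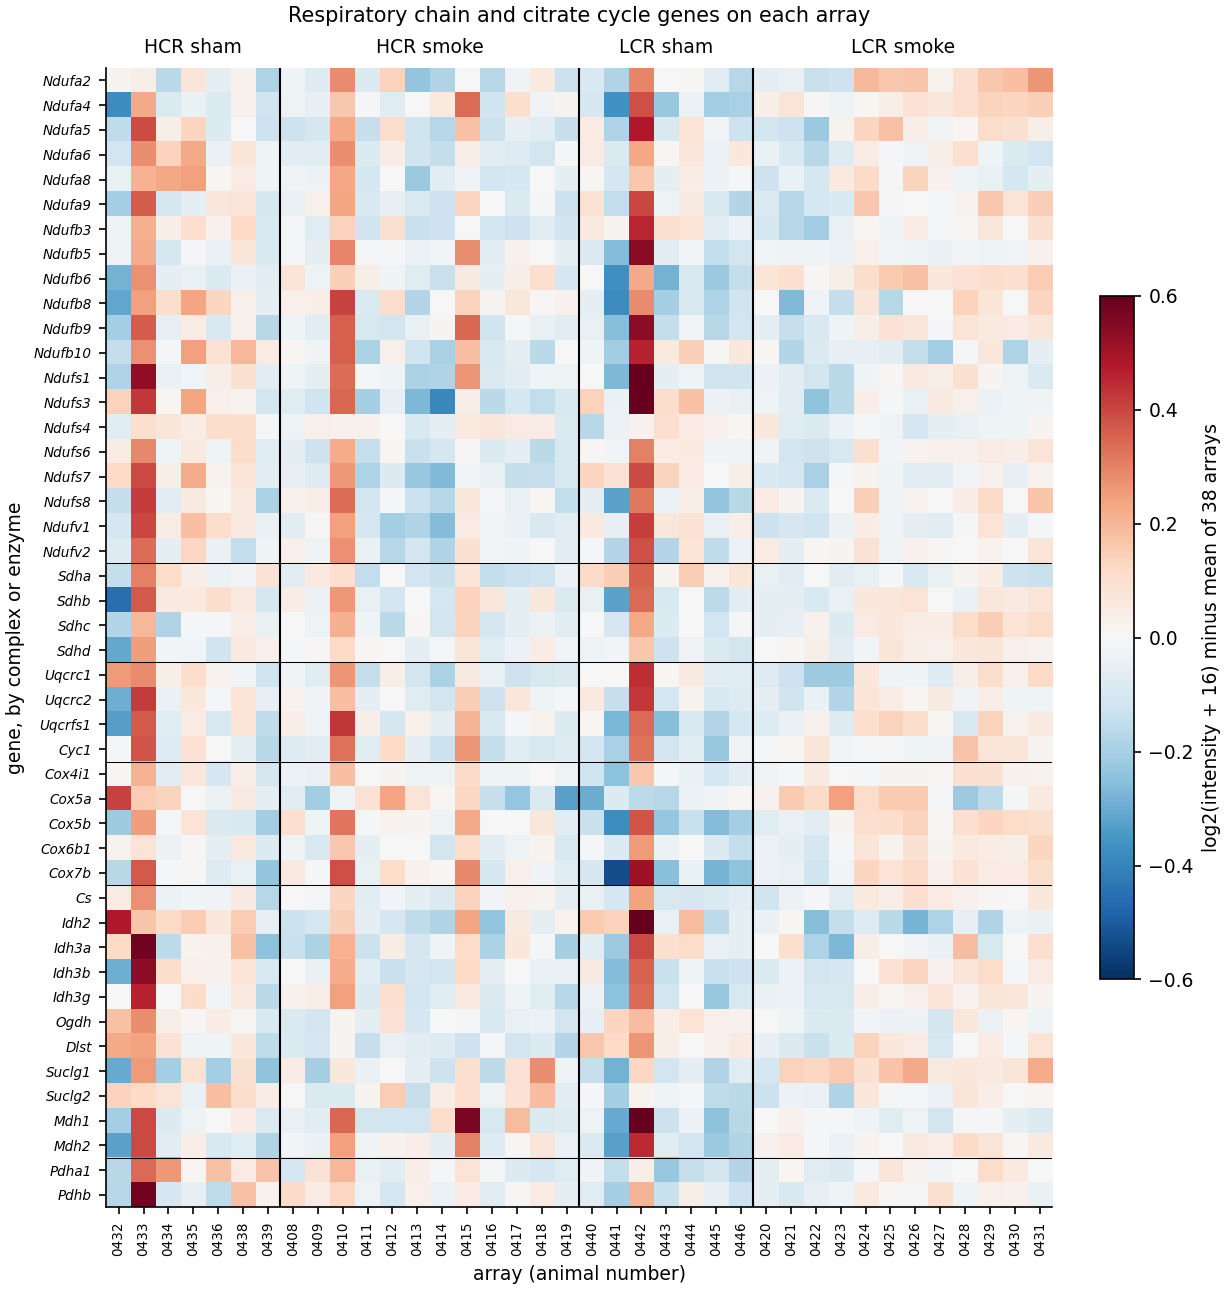
Log2(intensity + 16) of each of the 46 genes on each of the 38 arrays, minus the gene's mean over all arrays. Rows are ordered by complex I, II, III, IV, citrate cycle and pyruvate dehydrogenase, columns by group. Red columns at HCR sham 0433, HCR smoke 0410 and LCR sham 0442 show nearly all rows high together, with a weaker one at HCR smoke 0415.

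Smoke in HCR lowered 8 of the 46 genes and raised 0. Over all genes tested 17.7% were called higher and 30.4% lower, so the genes called lower were a smaller share (8 of 46) than the background. The median change of the 46 genes was -0.034, beside -0.027 over all genes. The 0 higher calls are limma's at the adjusted threshold, and at an unadjusted p under 0.05 there were 0 higher and 13 lower. The 8 fall into complex I (4 of 20), the citrate cycle (3 of 11) and pyruvate dehydrogenase (1 of 2), while 0 of 4 were called in complex II, 0 of 4 in complex III and 0 of 5 in complex IV.

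Among complex I subunits, Ndufs7, which carries the last iron-sulfur cluster before ubiquinone, had intensities of 789 to 1094 (median 876) in HCR sham and 686 to 995 (median 777) in HCR smoke. The groups overlapped, and 11 of 12 smoke arrays were below the sham mean. It fell by 0.20 ± 0.056 (limma adjusted p = 0.00313), a fold of 0.868. Ndufs3, a core subunit of the arm that faces the matrix, ran from 422 to 620 (median 467) in HCR sham and from 346 to 585 (median 422) in HCR smoke, and fell by 0.21 ± 0.080 (limma adjusted p = 0.0298). Its sham values overlapped those under smoke, with the highest of each group on muscle arrays 0433 and 0410. Ndufv1, the subunit that binds NADH and FMN, fell by 0.15 ± 0.060 (limma adjusted p = 0.0346), and Ndufa8, an accessory subunit, fell by 0.14 ± 0.048 (limma adjusted p = 0.015).

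In the citrate cycle, Idh2, the NADP-dependent isocitrate dehydrogenase of mitochondria, had intensities of 1117 to 1619 (median 1284) in HCR sham and 978 to 1363 (median 1091) in HCR smoke. The highest sham value came from HCR sham 0432, and the groups overlapped. Idh2 fell by 0.20 ± 0.078 (limma adjusted p = 0.0313), with 11 of 12 smoke arrays below the sham mean. Ogdh and Dlst encode the first 2 enzymes of the oxoglutarate dehydrogenase complex, which makes succinyl-CoA. Dlst, at 335 to 445 (median 392) in HCR sham and 329 to 379 (median 353) in HCR smoke, fell by 0.14 ± 0.044 (limma adjusted p = 0.00762), with 12 of 12 smoke arrays below the sham mean and overlapping ranges. Ogdh fell by 0.11 ± 0.037 (limma adjusted p = 0.0127).

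Citrate synthase (Cs), often used as a measure of mitochondrial content, was 0.018 ± 0.045 log2 units below sham on average (95% interval -0.11 to 0.073, limma adjusted p = 0.77). Cox4i1, a core regulatory subunit of complex IV, gave a difference of -0.0011 ± 0.040 (limma adjusted p = 0.985). Sdha, the flavoprotein of complex II that is also an enzyme of the cycle, gave -0.10 ± 0.046 (limma adjusted p = 0.0652). Values of the other sentinel genes were -0.13 ± 0.063 for Uqcrc1 of complex III (limma adjusted p = 0.0991) and -0.059 ± 0.086 for Ndufs1 of complex I (limma adjusted p = 0.593). These intervals do not show that the genes were unchanged.

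The count in HCR moved with single arrays: 4 genes were lower without HCR sham 0433, 5 without HCR sham 0435 and 14 without HCR smoke 0410. The share over all genes is not given here for fits with 1 array left out. Ndufs7 and Dlst were called whichever array was left out. The others lost the call without 1 to 6 single arrays: 0433, 0435 or 0414 for Ndufs3, 0432 or 0416 for Idh2, 0434 or 0435 for Ndufa8, 0433 for Ogdh, and 0433, 0435, 0436, 0412, 0413 or 0414 for Ndufv1. With the 6 muscle arrays left out, all 8 were called again, with Ndufb10 and Ndufs6 added, and Mdh2, the mitochondrial malate dehydrogenase, was called higher at 0.11 ± 0.041. Over all genes that fit called 13.4% higher and 25% lower. With each array centred on its median, or after quantile normalization, 2 of the 46 genes were called lower, at a background of 23.6% and 22.4%. When the fit held a covariate for array interquartile range, 1 was, at a background of 11.3%. That covariate ended the call of each of the 8, so the 1 was another gene. Of the 8, 0 held their call in every setting. Those settings lowered the share over all genes too, from 30.4%. In proportion it fell by less than the count of the 46 genes, which was 8. With the Actb difference as a covariate, Idh2, Dlst and Ogdh lost their call in HCR.

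Smoke in LCR raised 6 of the 46 genes and lowered 5, at a background of 22.7% higher and 27.9% lower. Both shares were below the background. The median change was 0.039, beside -0.0046 over all genes. Higher were 2 of 20 genes of complex I, 2 of 5 of complex IV, 1 of 11 of the citrate cycle and 1 of 2 of pyruvate dehydrogenase, and lower were 1 of 20 of complex I, 1 of 4 of complex II and 3 of 11 of the citrate cycle.

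Ndufb6, an accessory subunit in the membrane arm of complex I, had intensities of 636 to 970 (median 745) in LCR sham and 830 to 934 (median 884) in LCR smoke. All 12 smoke arrays were above the sham mean, and the groups overlapped only through LCR sham 0442. Ndufb6 rose by 0.22 ± 0.057 (limma adjusted p = 0.00162), a fold of 1.17. In HCR the difference was 0.046 ± 0.057 (limma adjusted p = 0.53), and the difference between the lines was 0.18 ± 0.081 (limma adjusted p = 0.23). Ndufa4, long counted with complex I and found at complex IV, ran from 1459 to 2472 (median 1643) in LCR sham and from 1845 to 2081 (median 1983) in LCR smoke. It rose by 0.17 ± 0.069 (limma adjusted p = 0.036), with the highest sham value again on 0442.

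Cox5b, a zinc-binding subunit of complex IV, was at 943 to 1596 (median 1062) in LCR sham and at 1165 to 1354 (median 1314) in LCR smoke. Without 0442 the highest sham array was at 1118, below every smoke array. It rose by 0.19 ± 0.068 (limma adjusted p = 0.0203). Cox5a, its partner subunit, has a dim probe set, at 39.7 to 52.9 (median 48.8) in LCR sham and 43.0 to 65.3 (median 56.7) in LCR smoke, with overlap, and rose by 0.16 ± 0.068 (limma adjusted p = 0.047). Suclg1, the alpha subunit of succinyl-CoA ligase, ran from 635 to 849 (median 718) in LCR sham and from 722 to 914 (median 840) in LCR smoke and rose by 0.21 ± 0.065 (limma adjusted p = 0.00704). In HCR its difference was 0.072 ± 0.065 (limma adjusted p = 0.37).

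Idh2 fell in LCR too, from 1034 to 1884 (median 1271) in LCR sham to 950 to 1160 (median 1070) in LCR smoke. The change was -0.25 ± 0.078 (limma adjusted p = 0.00736), a fold of 0.84, and 12 of 12 smoke arrays were below the sham mean although the ranges overlapped. Sdha, at 1027 to 1298 (median 1098) in LCR sham and 922 to 1046 (median 982) in LCR smoke, fell by 0.17 ± 0.046 (limma adjusted p = 0.00223). Only the highest smoke and the lowest sham values overlapped. Ndufs7 fell by 0.16 ± 0.056 (limma adjusted p = 0.0147), Ogdh by 0.094 ± 0.037 (limma adjusted p = 0.0312) and Dlst by 0.10 ± 0.044 (limma adjusted p = 0.05 after rounding). The remaining sentinel genes were not called: Cs at 0.046 ± 0.045 (limma adjusted p = 0.402), Cox4i1 at 0.083 ± 0.040 (adjusted p = 0.0819), Uqcrc1 at -0.085 ± 0.063 (adjusted p = 0.262) and Ndufs1 at -0.033 ± 0.086 (adjusted p = 0.768).

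**Figure D3:**
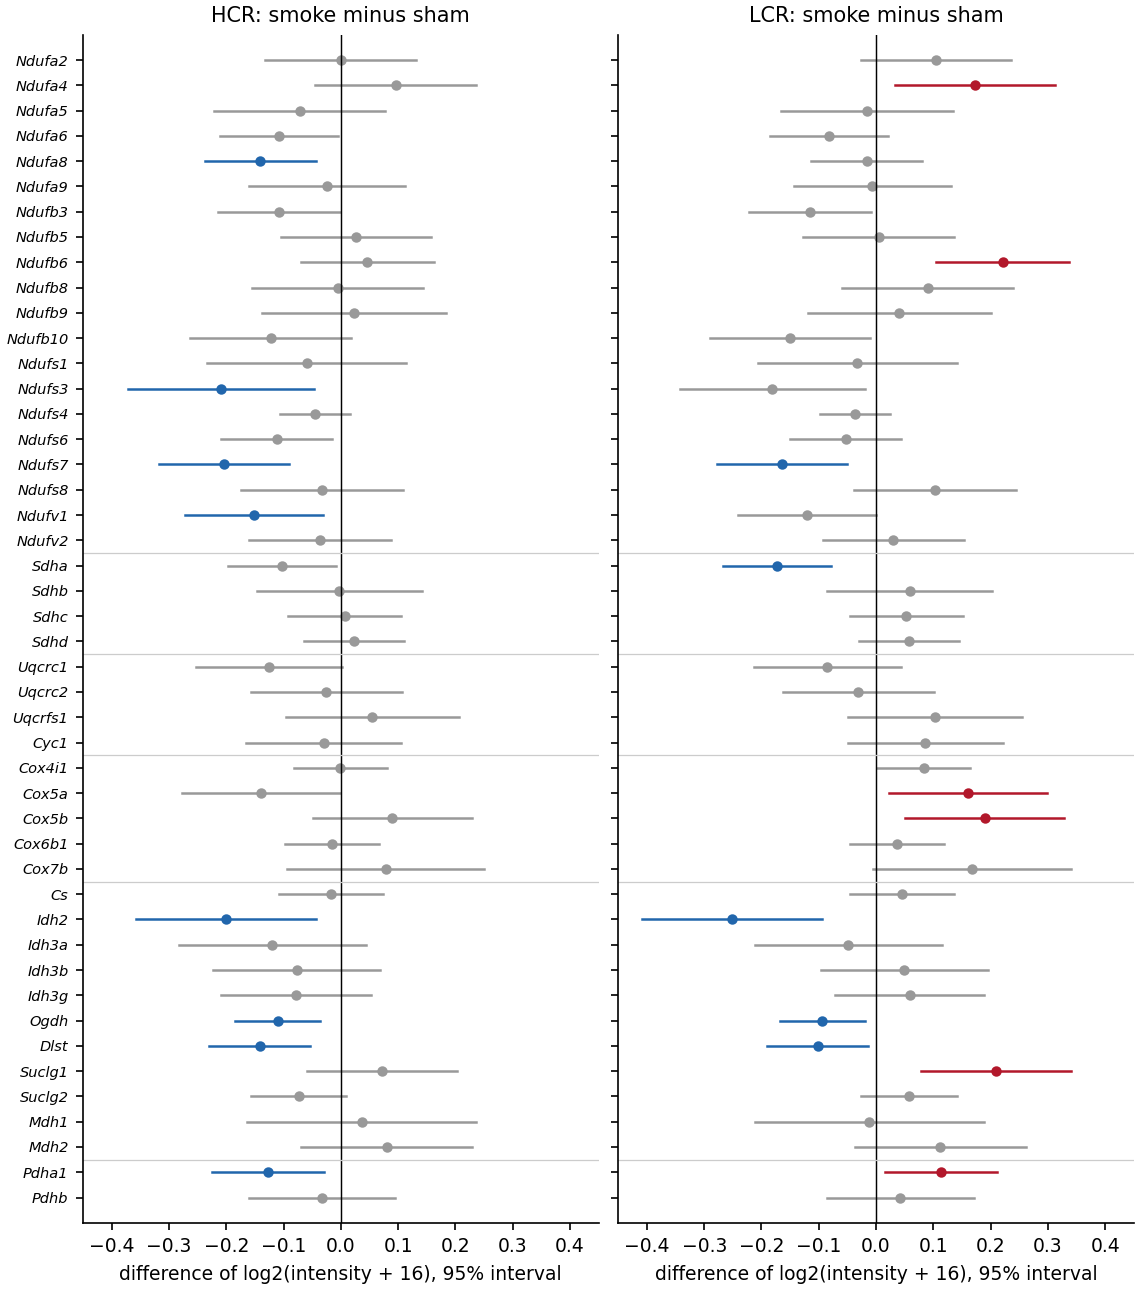
Difference of log2(intensity + 16), smoke minus sham, with its 95% interval for each of the 46 genes in HCR (left) and LCR (right). Red marks genes called higher and blue genes called lower by limma at an adjusted p under 0.05. HCR shows 0 red and 8 blue genes, LCR 6 red and 5 blue.

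The muscle arrays moved the LCR count more than the HCR count. With the 6 arrays left out, 23 of the 46 genes were called higher and 3 lower in LCR, at a background of 21.6% and 27.5%, and the median change was 0.091. Of the 6 genes called higher with all arrays, 5 were called again and Cox5a was not, at 0.15 ± 0.074 (limma adjusted p = 0.0865). Among the 18 added were 3 of complex IV, Cox4i1 (0.12 ± 0.029), Cox6b1 (0.082 ± 0.030) and Cox7b (0.28 ± 0.050), Cs (0.092 ± 0.029), and both malate dehydrogenases, Mdh1 (0.12 ± 0.034) and Mdh2 (0.20 ± 0.038). Idh2, Sdha and Ndufs7 were the 3 called lower in both fits. With only LCR sham 0442 left out, 12 were called higher and 2 lower, a fit whose share over all genes is not given here.

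**Figure D4:**
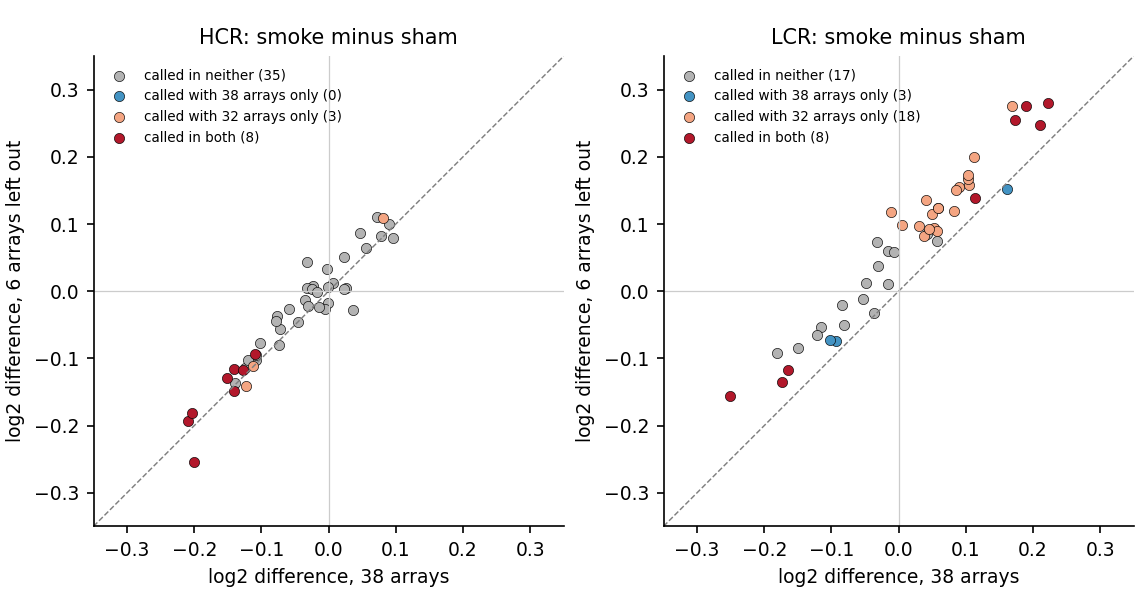
Smoke minus sham differences of log2(intensity + 16) for the 46 genes, with 38 arrays (x axis) and with the 6 muscle arrays left out (y axis), in HCR (left) and LCR (right). Colours give the fits in which limma called the gene, and the dashed line marks equal values. In LCR nearly all points lie above the line, and 18 genes were called with 32 arrays only.

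Other single arrays lowered the LCR count. It was 2 higher without LCR sham 0441, and 3 without LCR sham 0443, LCR sham 0445 or LCR smoke 0431. For these fits too the share over all genes is not given here. Over all 53 fits (38 with 1 array left out, 14 other settings and the one with all arrays), Ndufb6, Suclg1, Idh2 and Sdha were called in LCR in each. Pdha1 and Dlst, whose adjusted p lay at the threshold, were called in 24 and 15 fits and Cox5a in 32; leaving out any of 25, 25 and 15 single arrays ended these calls. Cox5b lost its call without LCR sham 0441 or 0445, Ndufa4 without 0441, 0443, 0445, 0446 or 0431, Ogdh without 0441, 0442 or 0444, and Ndufs7 without 0442. With the Actb difference as a covariate, Cox5b, Ndufa4, Pdha1, Dlst and Ogdh lost their call in LCR. Scaling mattered as well. With each array centred on its median, 16 of the 46 genes were called higher and 2 lower in LCR (38.4% and 20.9% over all genes), so that 88.9% of the calls were upward instead of 54.5%.

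Genes lower in both lines were Idh2, Ndufs7, Dlst and Ogdh, 4 of the 8 called lower in HCR and 4 of the 5 in LCR. The share of all genes lower in both lines is not given here, so this overlap has no background beside it. Pdha1, the alpha subunit of the first enzyme of the pyruvate dehydrogenase complex and the site where kinases switch it off, was called in opposite directions. Its intensities were 1178 to 1677 (median 1488) in HCR sham, 1228 to 1518 (median 1298) in HCR smoke, 1128 to 1360 (median 1201) in LCR sham and 1247 to 1430 (median 1318) in LCR smoke. LCR sham was lowest and HCR sham highest by median, all 4 groups overlapped, and the smoke groups lay close together. With smoke, Pdha1 fell by 0.13 ± 0.048 in HCR (limma adjusted p = 0.0289) and rose by 0.11 ± 0.048 in LCR (limma adjusted p = 0.049), and the difference between these changes was 0.24 ± 0.068 (limma adjusted p = 0.0542).

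The call of Pdha1 in HCR rested on the brighter of its probe sets. A further, dimmer Pdha1 probe set (mean 417 against 1327) gave 0.13 ± 0.17 in HCR (limma adjusted p = 0.546) and 0.27 ± 0.17 in LCR (limma adjusted p = 0.182). Its SE in HCR was too wide to give a direction. The mean of both probe sets gave 0.0030 in HCR (limma adjusted p = 0.983). The HCR call was also lost without HCR sham 0433, 0434, 0436 or 0439, and in a fit of the HCR groups alone (limma adjusted p = 0.0828). Adjusted p values of further probe sets come from a limma fit of all 20826 probe sets with 1 symbol. In that fit the brighter Pdha1 probe set had a limma adjusted p of 0.032 in HCR and 0.0526 in LCR. For the other genes with several probe sets, Mdh1 gave a second, dimmer one that was called lower with smoke in both lines, by 0.41 ± 0.11 in HCR (limma adjusted p = 0.00229) and by 0.36 ± 0.11 in LCR (limma adjusted p = 0.00595), while the brighter one gave 0.036 ± 0.098 and -0.011 ± 0.098. A second Ndufa9 probe set, near the low end of the scale with a mean of 9.62, was called lower in both lines too, and a dim further Cs probe set, with a mean of 7.88, was called higher in LCR by 0.086 ± 0.024 (limma adjusted p = 0.0034).

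Under room air, few of these genes differed between the lines. Of the 46 genes, 0 were called higher and 2 lower in LCR sham than in HCR sham, at a background of 1.39% higher and 2.34% lower, and at an unadjusted p under 0.05 limma gave 0 higher and 3 lower. The median difference was -0.032 (all genes -0.013), and 17.4% of the 46 genes were above 0 (all genes 42.5%). Pdha1 was lower by 0.23 ± 0.054 in LCR sham (limma adjusted p = 0.0108), with 7 of 7 LCR arrays below the HCR mean. Its dimmer probe set gave -0.068 ± 0.19 (limma adjusted p = 0.911). Suclg2, the GTP-specific beta subunit of succinyl-CoA ligase, was at 742 to 868 (median 823) in HCR sham and 663 to 776 (median 748) in LCR sham, with overlap, and the difference was -0.17 ± 0.046 (limma adjusted p = 0.033).

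Neither line call held in a fit of the sham groups alone, where limma's adjusted p was 0.109 for Pdha1 and 0.0749 for Suclg2. The Suclg2 call also ended without any 1 of HCR sham 0433, 0434, 0436 or 0438 or of LCR sham 0441, 0445 or 0446, which left 1 gene. Without the 6 muscle arrays both were called, at -0.22 ± 0.050 for Pdha1 (limma adjusted p = 0.0136) and -0.18 ± 0.051 for Suclg2 (limma adjusted p = 0.0491). The sentinel genes lay between -0.067 ± 0.045 (Cox4i1) and 0.077 ± 0.052 (Sdha). For Cs the difference was -0.055 ± 0.051 (limma adjusted p = 0.629).

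**Figure D5:**
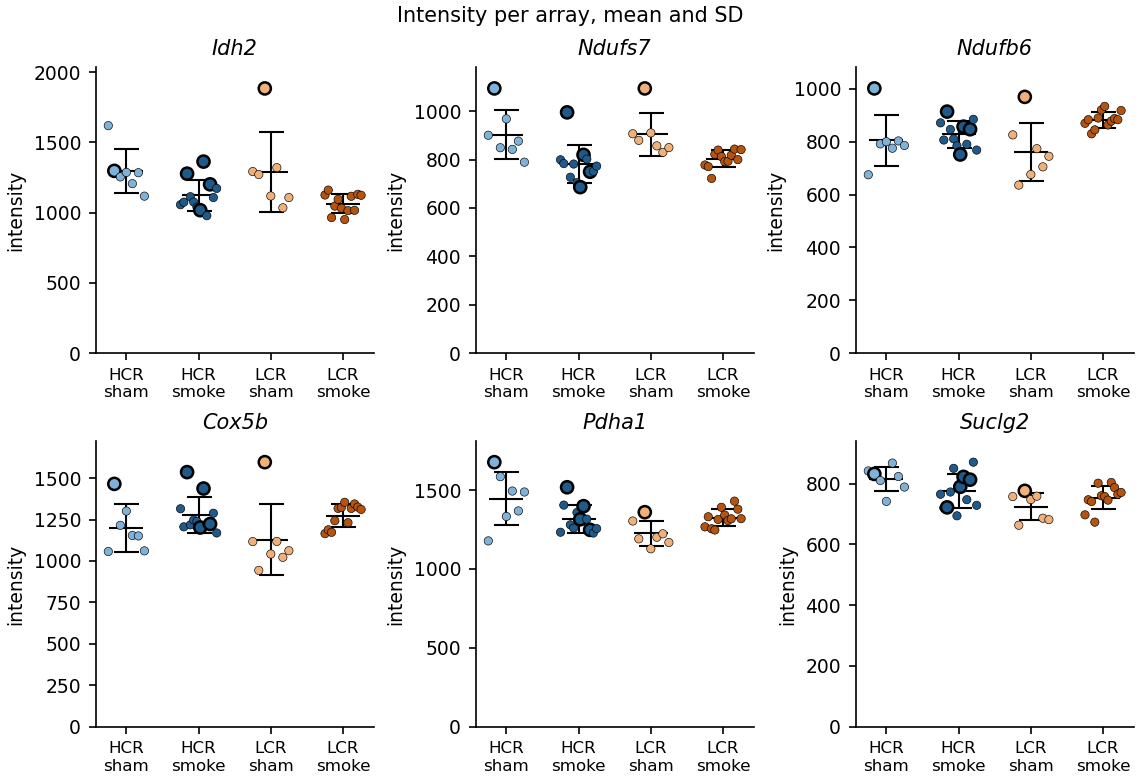
Intensity per array of Idh2, Ndufs7, Ndufb6, Cox5b, Pdha1 and Suclg2 in the 4 groups, with group mean and SD as bars. Points with a thick outline are the 6 muscle arrays. Idh2 and Ndufs7 are lower under smoke in both lines, Ndufb6 and Cox5b are higher in LCR smoke than in LCR sham except for 0442, and Pdha1 and Suclg2 are lower in LCR sham than in HCR sham.

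Under smoke, no difference between the lines was called. LCR smoke against HCR smoke gave 0 calls in either direction, at a background of 4.61% higher and 1.7% lower. At an unadjusted p under 0.05 limma gave 0 of the 46 genes, against 24.2% of all genes. Differences ran from -0.075 (Mdh1) to 0.11 (Ndufa2, a complex I subunit, limma adjusted p = 0.213), with a median of 0.018, and the 95% intervals together covered -0.25 to 0.22.

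A difference between the lines in the smoke change was called by limma for 0 of the 46 genes at the adjusted threshold, where 1.52% of all genes were called higher in LCR and 0.352% lower. By limma's unadjusted p under 0.05, 4 genes were higher and 0 lower, against 18.7% of all genes in either direction. These 4 were Pdha1, Cox5a (0.30 ± 0.096, adjusted p = 0.0852), Suclg2 (0.13 ± 0.058, adjusted p = 0.211) and Ndufb6. The difference was above 0 for 39 of 46 genes (84.8%, all genes 57.8%), with a median of 0.054 (all genes 0.019). The Pdha1 difference sat at the threshold and was called in 12 of 52 fits. These were 6 with 1 array left out (HCR sham 0432, HCR smoke 0410, LCR sham 0442, or LCR smoke 0420, 0422 or 0423) and 6 other settings, among them the one centred on array medians (adjusted p = 0.0268) and the one without the 6 muscle arrays and HCR sham 0432 (0.31, adjusted p = 0.0051). Without HCR smoke 0412, 1 of the 46 genes other than Pdha1 was called.

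Promoters of the genes were compared next, as members of 1 pathway can share start-site motifs. RefSeq promoter sequences of the GRCr8 build, from 250 bases before to 50 after the start, matched 42 of the 46 genes. Those not matched were Ndufa8, Ndufb9, Cyc1 and Idh3a. Motifs known from genes for mitochondrial proteins were searched on both strands, and none of these words contains another. The letters AAGATGGC, the core bound by YY1, were in 11 of 42 promoters (26.2%) against 3.17% of all 33469. All 11 matches lay on the gene's strand, and 10 of them began between 10 bases before and 30 bases after the start, where the letters can include the start codon. The NRF1 core GCATGCGC was in 3 (7.14% against 2.47%), the ETS core CCGGAAGT in 4 (9.52% against 3.81%) and the element TCAAGGTCA of estrogen-related receptors in 1 (2.38% against 0.433%). A match describes letters in a window and not a bound site.

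The 5 promoters that follow belong to genes whose levels the results turn on: Ndufs7 and Idh2, lower with smoke in both lines, Ndufb6, higher in LCR, and Pdha1 and Suclg2, lower in LCR sham. Each runs 5′ to 3′ on the gene's strand from 80 bases before to 30 after the start, and capitals mark the YY1 core, which Ndufs7 and Suclg2 hold and the other 3 windows do not. Coordinates are GRCr8: chr7:10110469-10110578 for Ndufs7, chr4:129893908-129894017 for Suclg2, chr1:143467219-143467328 for Idh2 and chr5:60206123-60206232 for Ndufb6, all on the minus strand, and chrX:38509078-38509187 on the plus strand for Pdha1.
Ndufs7: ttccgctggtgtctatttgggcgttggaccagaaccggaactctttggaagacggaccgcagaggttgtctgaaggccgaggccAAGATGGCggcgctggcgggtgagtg
Suclg2: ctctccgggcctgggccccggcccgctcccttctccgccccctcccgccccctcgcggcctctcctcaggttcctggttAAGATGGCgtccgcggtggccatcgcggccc
Idh2: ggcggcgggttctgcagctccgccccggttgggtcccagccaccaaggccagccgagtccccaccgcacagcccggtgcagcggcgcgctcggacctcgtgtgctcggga
Ndufb6: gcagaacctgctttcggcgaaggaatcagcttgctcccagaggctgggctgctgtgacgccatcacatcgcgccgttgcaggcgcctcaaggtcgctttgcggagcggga
Pdha1: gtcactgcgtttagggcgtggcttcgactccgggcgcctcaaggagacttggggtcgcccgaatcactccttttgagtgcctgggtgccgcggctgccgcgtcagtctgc

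Among the 11 genes with the YY1 core, Ndufs7 was called lower with smoke in both lines and Suclg2 lower in LCR sham. The other 9 (Ndufa2, Ndufa6, Ndufa9, Ndufb8, Ndufs4, Ndufs6, Sdhc, Uqcrc1 and Idh3g) were called in none of the 5 comparisons with all arrays. With the 6 muscle arrays left out, 5 of these 9 were called. Ndufa2, Ndufb8, Sdhc and Idh3g were higher with smoke in LCR, and Ndufs6 was lower with smoke in HCR. In that fit, 23 of all 46 genes were called higher in LCR and 10 lower in HCR, at a background of 21.6% and 25%. Whether genes with the core differ from the others in their calls was not tested.

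Wider lists cover the rest of the pathway, and their counts are to be read against the 17.7% of all genes called higher and 30.4% lower in HCR, and 22.7% and 27.9% in LCR. Of 22 further complex I subunits and assembly factors, 2 rose and 6 fell with smoke in HCR, and 5 rose and 3 fell in LCR, shares at or below that background. Ndufaf4, an assembly factor, rose by 0.31 ± 0.074 in HCR (limma adjusted p = 0.000924) and by 0.42 ± 0.074 in LCR (limma adjusted p = 1.39e-05), and Ndufaf3, which works beside it in assembly, fell by 0.21 ± 0.039 and 0.18 ± 0.039 (limma adjusted p = 3.85e-05 and 0.000366). Among 17 other genes of complexes III and IV, 1 rose and 5 fell in HCR, and 0 rose and 3 fell in LCR. Surf1, a complex IV assembly factor, fell by 0.30 ± 0.052 in HCR (limma adjusted p = 1.76e-05) and by 0.21 ± 0.052 in LCR (limma adjusted p = 0.000973). Cox4i2, the lung isoform of the complex IV subunit whose widespread form is Cox4i1, fell by 0.42 ± 0.087 in HCR (limma adjusted p = 0.000185) and by 0.24 ± 0.087 in LCR (limma adjusted p = 0.02). The Cox4i2 call in LCR was lost without LCR sham 0440 or 0444. It was also lost with centred arrays, quantile normalization or the interquartile range as a covariate. That covariate ended the Surf1 calls in both lines too.

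Of 14 measured ATP synthase genes, from 32 listed, 2 rose in HCR and 3 in LCR, near the background of 17.7% and 22.7%, and 0 fell in either. Their mean, set against its all-array mean, was 0.29 on LCR sham 0442. Over LCR sham it was -0.045, and -0.10 without 0442, against 0.027 in LCR smoke. Atp5if1, the inhibitor that stops the enzyme running backwards, rose by 0.18 ± 0.057 in HCR (limma adjusted p = 0.00809) and 0.30 ± 0.057 in LCR (limma adjusted p = 4.45e-05). Atp5pb, a stalk subunit, rose by 0.17 ± 0.056 in HCR (limma adjusted p = 0.0146) and in LCR by 0.20 ± 0.056 (limma adjusted p = 0.00415). The Atp5pb call in HCR was lost without HCR sham 0432 and with the Actb difference as a covariate. Carriers and import proteins included Slc25a5, an ADP/ATP exchanger, which rose by 0.25 ± 0.034 and 0.33 ± 0.034 (limma adjusted p = 3.79e-07 and 1.23e-09), and Tomm20, an import receptor of the outer membrane, which rose by 0.19 ± 0.031 in both lines (limma adjusted p = 8.97e-06 and 5.38e-06). Of the 19 genes of that list, 7 rose and 4 fell in HCR, and 7 rose and 1 fell in LCR.

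Among 20 other citrate cycle and pyruvate enzymes, 7 rose and 5 fell in HCR, and 9 rose and 1 fell in LCR, beside 17.7% and 30.4% of all genes in HCR and 22.7% and 27.9% in LCR. Idh1, the cytosolic counterpart of Idh2, went the other way from it. Its intensity was 901 to 1256 (median 1109) in HCR sham and 1350 to 1958 (median 1774) in HCR smoke, with no overlap, and 903 to 1125 (median 1015) in LCR sham and 1534 to 1955 (median 1674) in LCR smoke, again with none. It rose by 0.62 ± 0.069 in HCR (limma adjusted p = 1.67e-08) and by 0.71 ± 0.069 in LCR (limma adjusted p = 3.08e-10). Me2, the mitochondrial malic enzyme, rose by 0.39 ± 0.061 and 0.69 ± 0.061 (limma adjusted p = 3.34e-06 and 5.16e-11).

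Further genes act in or on the pyruvate dehydrogenase complex. Pdhx, the protein that binds dihydrolipoamide dehydrogenase to it, had intensities of 146 to 192 (median 164) in LCR sham and 235 to 314 (median 292) in LCR smoke, with no overlap, and 167 to 244 (median 183) in HCR sham and 188 to 289 (median 231) in HCR smoke. It rose by 0.71 ± 0.072 in LCR (limma adjusted p = 7.38e-10) and by 0.25 ± 0.072 in HCR (limma adjusted p = 0.00407), and the difference of 0.46 ± 0.10 was called (limma adjusted p = 0.0171), though not without the 6 muscle arrays (0.39, adjusted p = 0.0829). Dld, which encodes that dehydrogenase, rose by 0.43 ± 0.077 in HCR (limma adjusted p = 3.24e-05) and by 0.40 ± 0.077 in LCR (limma adjusted p = 4.77e-05).

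Pdk4, a kinase that inactivates the complex and is induced by fasting and glucocorticoids, was at 184 to 565 (median 303) in HCR sham, 99.5 to 268 (median 165) in HCR smoke, 134 to 219 (median 180) in LCR sham and 81.4 to 260 (median 138) in LCR smoke. HCR sham stood above the other groups, with overlap. It was lower by 0.86 ± 0.22 in LCR sham than in HCR sham (limma adjusted p = 0.0191), with 7 of 7 LCR arrays below the HCR mean, and this call was lost without HCR sham 0433 or 0434, in a fit of the sham groups alone (adjusted p = 0.0665) and without the 6 muscle arrays (-0.71, adjusted p = 0.0755). With smoke Pdk4 fell by 0.88 ± 0.19 in HCR (limma adjusted p = 0.000384), while in LCR the difference was -0.32 ± 0.19 (limma adjusted p = 0.164). The smoke changes differed by 0.55 ± 0.27 (limma adjusted p = 0.271).

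Ppargc1a, the coactivator PGC-1alpha that drives mitochondrial biogenesis, was at 89.0 to 133 (median 106) in HCR sham and 38.0 to 84.7 (median 58.7) in HCR smoke. In LCR it was at 84.5 to 126 (median 95.3) in sham and 43.0 to 63.4 (median 54.6) in smoke. Sham and smoke arrays did not overlap in either line. It fell by 0.69 ± 0.090 in HCR (limma adjusted p = 2.45e-07) and by 0.73 ± 0.090 in LCR (limma adjusted p = 3.2e-08). Of the 18 biogenesis regulators, 3 rose and 5 fell in HCR, and 3 rose and 4 fell in LCR, shares close to or below those over all genes. Pprc1, a relative of Ppargc1a, rose by 0.41 ± 0.072 in LCR (limma adjusted p = 1.62e-05), Esrra, an estrogen-related receptor that works with PGC-1alpha, rose there by 0.27 ± 0.038 (limma adjusted p = 5.04e-07), and Nrf1 and the mitochondrial deacetylase Sirt3 fell in HCR by 0.24 ± 0.058 and 0.25 ± 0.067 (limma adjusted p = 0.00111 and 0.00206).

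Under room air Pdk4 and Ucp2 were the 2 genes of the wider lists called between the lines. Ucp2, an inner membrane carrier related to the uncoupling protein, was at 718 to 1026 (median 828) in HCR sham, 657 to 950 (median 788) in HCR smoke, 624.8 to 789 (median 706) in LCR sham and 794 to 917 (median 834.5) in LCR smoke. LCR smoke and LCR sham did not overlap, whereas the HCR groups did. Ucp2 was lower in LCR sham than in HCR sham by 0.31 ± 0.067 (limma adjusted p = 0.00628) and, with smoke, rose by 0.28 ± 0.059 in LCR (limma adjusted p = 0.000177) and fell by 0.14 ± 0.059 in HCR (limma adjusted p = 0.0448). The difference of these changes was 0.42 ± 0.084 (limma adjusted p = 0.00924). The line call ended in a fit of the sham groups alone (adjusted p = 0.0759), and that of the difference with both muscle means as covariates (adjusted p = 0.0502). Slc25a1 gave a smaller difference of changes, 0.35 ± 0.091 (limma adjusted p = 0.0375), a call lost without any 1 of 17 arrays. It was also lost in 6 other settings, among them quantile normalization, the heart mean as a covariate and the 6 muscle arrays left out. Slc25a1, the citrate carrier, was higher in LCR smoke than in HCR smoke by 0.29 ± 0.055 (limma adjusted p = 0.00122), as were Me2 by 0.31 ± 0.052 (limma adjusted p = 0.00029) and Pdp2, a phosphatase that reactivates pyruvate dehydrogenase, by 0.38 ± 0.071 (limma adjusted p = 0.0011). Pdhx (0.26 ± 0.062, limma adjusted p = 0.0106) and Acly, the enzyme that splits citrate in the cytosol (0.15 ± 0.046, limma adjusted p = 0.0428), were higher too. Gabpa, a subunit of an ETS family factor, was lower by 0.23 ± 0.071 (limma adjusted p = 0.0453), a call lost without any 1 of 15 arrays and without the 6 muscle arrays. The Pdhx call was also lost without those 6 (adjusted p = 0.0516).

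Cell type markers changed with smoke on the same arrays. Of 10 macrophage markers, 7 rose and 2 fell in HCR, and 8 rose and 1 fell in LCR. Their mean, set against its all-array mean, ran from -0.61 to -0.21 in HCR sham and from -0.26 to 0.65 in HCR smoke, and from -1.06 to -0.50 in LCR sham and from -0.031 to 0.93 in LCR smoke. Alveolar type 1 markers fell in 6 of 6 genes in HCR and 5 of 6 in LCR, and endothelial markers in 6 of 7 and 7 of 7. Of 8 alveolar type 2 markers, 3 rose in HCR and 6 in LCR, with 0 lower. Of 6 neutrophil markers, 4 rose in each line, and their mean ran from -1.23 to -0.61 in LCR sham and from 0.32 to 0.90 in LCR smoke, with no overlap, and from -1.53 to 0.67 in HCR sham and from -0.43 to 1.10 in HCR smoke. Of 5 B cell markers, 1 fell in HCR and 5 in LCR, where their mean ran from 0.19 to 1.10 in sham and from -0.74 to 0.046 in smoke. Club cell markers fell in 3 of 4 genes in LCR, and 1 of 4 rose in HCR. Over all genes, 17.7% were higher and 30.4% lower in HCR, and 22.7% and 27.9% in LCR. No marker was listed at 0 on any array, and the part of these cell types in the changes of the 46 genes was not tested.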

How the data were processed

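Total RNA from about 25 mg of lung per animal was hybridised to Affymetrix arrays, per the labels' protocols. The authors' deposited table gives a linear intensity (2.09 to 11558) of each of 31099 probe sets, made by the authors with software and normalization not given in the sources used here. Of these probe sets, 57 were controls, and 20826 had 1 symbol, 436 several and 9780 none in the platform annotation.

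Values were taken as log2(intensity + 16) with no further normalization. A model of the 4 groups was fitted to all 38 arrays by limma 3.58.1 (lmFit and eBayes, two-sided, 34 residual degrees of freedom) in R 4.3.3, with Benjamini-Hochberg adjustment across 14217 genes. The 5 comparisons are smoke in each line, the lines under each exposure, and the interaction. The labels describe separate animals. Tables and motif searches used Python 3.11.15 with pandas 2.3.3, NumPy 2.4.6 and SciPy 1.17.1, and figures matplotlib 3.10.9. Coordinates are those of the RefSeq promoter table.

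The members, the other gene lists and the muscle arrays were chosen with earlier results of these data known. Genes named are, per comparison, up to 8 called members per direction, 7 sentinel members (Cs, Sdha, Ndufs1, Uqcrc1, Cox4i1, Idh2, Pdha1), up to 3 called genes per pathway list by p, and up to 3 markers per list by level; others were chosen after their values were seen. Tested on simulated data with shifts of 0.25 log2, the fit found 65% of them for smoke in HCR, 67% for smoke in LCR, 56% for the lines under sham, 72% for the lines under smoke, and 36% for the interaction. The simulation shifted 200 of 14217 genes, with noise independent between genes. Far more genes were called with smoke in the real data, and muscle arrays moved many genes together. These percentages are therefore a check of the fit and not its power here.

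Alternatives were median-centred arrays, quantile normalization, a pseudocount of 1, leaving out genes with a mean intensity under 50, averaging all probe sets of a gene, only the groups compared, array weights, a robust variance prior with an intensity trend, the heart muscle mean, the Actb 3' minus 5' difference or the interquartile range as a covariate, the 6 muscle arrays left out, and each array left out. Heart and skeletal muscle means together as covariates, and leaving out the 6 arrays and HCR sham 0432, were added after seeing the data.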

Additional observations from a re-analysis of the deposited data

Results flagged for a closer look

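Members far from the rest of their group were looked for with Dixon's ratio in the 2 groups of 7, where chance alone would mark about 1 in 20 groups. The share of all genes so marked is not given here. In LCR sham, 23 of the 46 genes had such a value, and all 23 were high on LCR sham 0442, the array with the most heart muscle RNA. As log2 differences from the mean of the other LCR sham arrays they were, in complex I, Ndufa2 0.37, Ndufa5 0.53, Ndufb3 0.43, Ndufb5 0.66, Ndufb9 0.66, Ndufs1 0.74, Ndufs3 0.62, Ndufs6 0.29, Ndufs7 0.32 and Ndufv1 0.39. In complexes II to IV they were Sdha 0.26, Sdhc 0.28, Sdhd 0.23, Uqcrc1 0.45, Uqcrc2 0.48, Cyc1 0.45, Cox5b 0.60 and Cox6b1 0.32. In the citrate cycle they were Cs 0.33, Idh2 0.66, Idh3g 0.46, Mdh1 0.91 and Mdh2 0.61. On LCR sham 0442, 19% of all genes were above every other LCR sham array, beside 95.7% of the 46.

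HCR sham had 5 outlying values. On HCR sham 0433, the array with skeletal muscle and brown fat markers, these were Ndufs1 at 0.56, Ndufs8 at 0.46, Cox7b at 0.46 and Mdh1 at 0.45. Idh2 was high by 0.38 on HCR sham 0432, the array with the widest Actb 3' minus 5' difference.

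The smoke change differed between the lines, by the interaction term in limma, for 3 genes of the wider pathway. It was larger in LCR than in HCR by 0.46 for Pdhx, 0.42 for Ucp2 and 0.35 for Slc25a1. The Pdhx and Slc25a1 calls were lost without the 6 muscle arrays, and all 3 with both muscle means as covariates.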

How the results depend on the processing

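For named genes under settings other than leaving out 1 array, 1210 values stayed called or stayed uncalled, 105 lost a call, 23 gained one and 2 reversed a called change. Both of these reversals were Pdha1 in HCR, at 0.0030 for the mean of its probe sets and 0.13 for its second probe set. Genes without a call could change sign within the 1210. Ndufs1 in LCR, never called, ran from -0.079 to 0.073 over all fits. Genes lower in HCR (8) came to 2 with centred arrays and with quantile normalization, 13 with array weights and 14 with the heart mean. With the interquartile range as a covariate 1 was lower, a gene not among the 8. In HCR 1 was higher without the 6 muscle arrays. Genes higher in LCR (6) came to 16 with centred arrays, 18 with weights, 12 with the heart mean or both muscle means, 23 without the 6 arrays, 24 without HCR sham 0432 as well, and 3 with the Actb covariate; those lower (5) came to 2 with centred arrays or the interquartile range and 3 with the heart mean or without the 6 arrays. The 2 genes lower in LCR sham became 1 with the mean of probe sets or both muscle means, and 0 with only the groups compared. Array weights gave 3 genes higher in LCR smoke than in HCR smoke. Interactions (0) came to 1 with centred arrays, with low genes left out, with the heart mean or the Actb covariate, 2 with weights and 4 without the 6 arrays and HCR sham 0432. The cause of these shifts was not tested. Settings also moved the share over all genes, as from 22.7% to 38.4% higher in LCR with centred arrays. That share is not given here for weights, the muscle means, the Actb covariate or the fit that also leaves out HCR sham 0432. The same holds for the fits with 1 array left out, so these counts cannot be set against a background. With 1 array left out, counts ranged from 4 to 14 lower in HCR, 2 to 12 higher and 2 to 7 lower in LCR, 1 to 2 lower in LCR sham and 0 to 1 higher interactions, and other counts were 0. No paired analysis was possible because animal numbers are not shared between groups.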
